A study of Mus musculus with 36 samples.

Results

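Gene expression in the mouse heart on the last day before birth was followed from 3 arrays of E18.5 hearts to 3 arrays of E19.5 hearts, 6 of the 36 messenger RNA arrays of a series that sampled the heart daily from E10.5 to E19.5 and in young and old adults. The arrays were chosen by stage label alone, and the comparison was made across all 20701 genes with a gene ID, of which 9740 had a mean above 5 on the log2 scale in at least 1 of both stages and are called expressed here. All hearts came from OF1 mice, an outbred strain, and the labels name no genetic change or treatment. Litter and array batch are not given in the sources used here. Where the arrays of a stage share a litter or batch, its effect cannot be told apart from the stage. Each stage had 1 array labelled female, 1 labelled male and 1 labelled with both sexes, called mixed here. Variation between hearts of a stage can therefore not be told apart from sex. The p-values of the main model measure the spread within stages, pooled over all 12 stages of the series. At E10.5 and E11.5 all arrays were mixed. Levels are log2 intensities after robust multi-array average (RMA), and a change of 1 stands for a doubling. Whole hearts were homogenized, so that fewer cells of a type and less RNA per cell cannot be told apart.

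Before birth the heart lives at low oxygen and burns mainly glucose and lactate, and around birth it turns to fatty acids as its main fuel. Fatty acids are freed from lipoproteins or lipid droplets, pass into mitochondria bound to carnitine, and are shortened there by beta-oxidation, while kinases switch off pyruvate dehydrogenase and thereby spare glucose. Glucocorticoids and thyroid hormone surge in the fetus late in gestation, and both are known to mature the heart.

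The extraction protocol in the labels names liver, whereas the methods name heart. None of 13 liver markers was expressed (*Alb* measured 3.47 to 4.16 on the 6 arrays), and *Myl2*, the ventricular myosin light chain, measured 13.42 to 13.80. Spiked-in hybridization controls averaged 11.09 (SD 0.43, n = 3) at E18.5 and 11.16 (SD 0.21, n = 3) at E19.5, and the poly-A controls 7.85 and 7.98. Exact 2-sided permutation tests gave p = 0.9 and p = 0.7, where 3 against 3 arrays cannot go below 0.1. In both stages the mixed array had the highest hybridization control level (11.56 and 11.39) and the narrowest distribution of values. The 3′ minus 5′ signal of 4 control transcripts differed by at most 0.30 between the stages (*Gapdh*, exact permutation p = 0.2). *Xist* and *Eif2s3y* went with the sex labels on all 6 arrays.

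A small part of the expressed genes was called as changed on the day before birth. With limma, a linear model with moderated variances fitted to all 36 arrays, 94 genes were higher at E19.5 and 216 lower at an adjusted p below 0.05, which is 0.965% and 2.22% of the expressed genes. At an unadjusted p below 0.05 there were 819 and 1241. The median change was 0.82 among the higher and 0.76 in size among the lower genes, and 28 and 31 changed by at least 1. The arrays of both stages did not overlap for 79 of the higher and 212 of the lower genes, against 5.94% and 12.1% of all expressed genes. The balance depends on the scaling: higher genes made up 30.3% of the calls with the values as deposited, 45.2% after a further quantile normalization, 44.6% after median centring and 46.5% with the hybridization control level as a covariate. The counts also rest on single arrays. Without the male array of E18.5 they fell to 23 and 49, without that of E19.5 to 15 and 25, and with the 6 arrays alone in the model to 3 (*Angptl4*, *Plin5* and *Lgals4*) and 0.

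**Figure D1:**
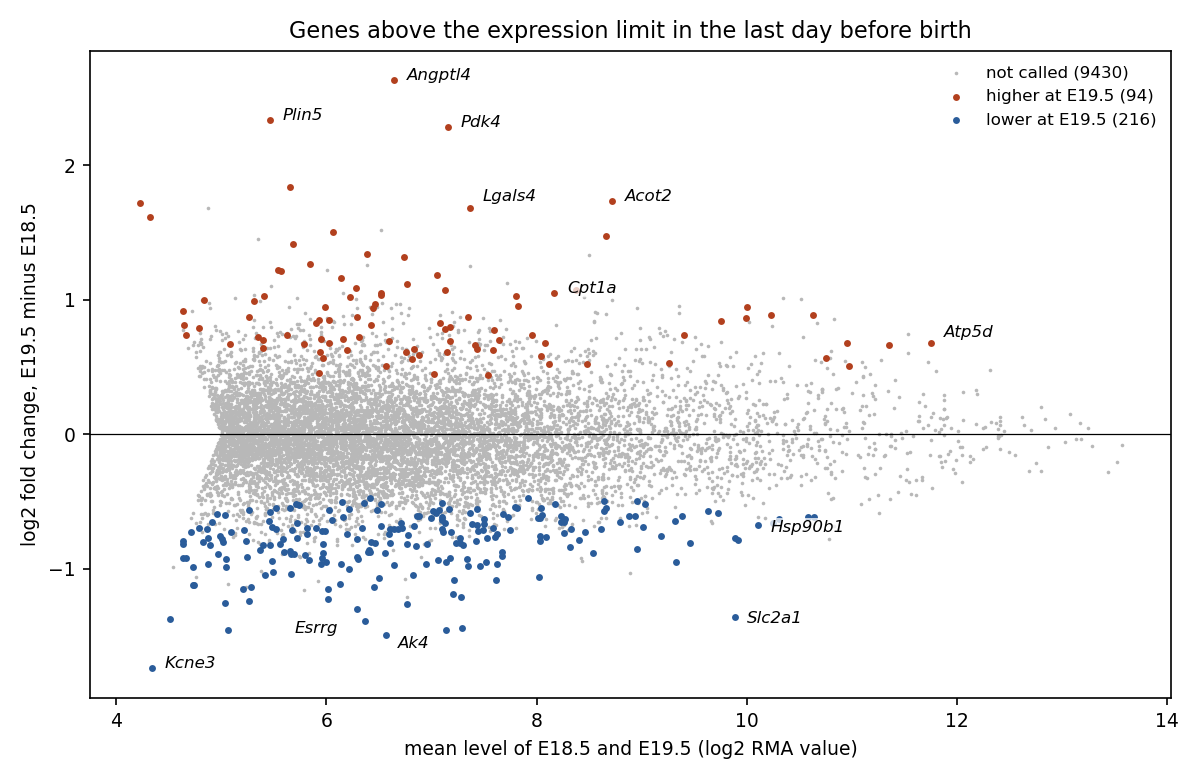
Log2 fold change (E19.5 minus E18.5) of the 9740 expressed genes against the mean level of both stages (log2 RMA value); each point is 1 gene, red for the 94 called higher, blue for the 216 called lower and grey for the others. *Angptl4*, *Plin5* and *Pdk4* lie above all other genes, and *Kcne3*, *Ak4* and *Slc2a1* are among the lowest.

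The 3 largest increases were those of genes that steer the supply of fatty acids and pyruvate to mitochondria. *Angptl4* (gene ID 57875) encodes a secreted inhibitor of lipoprotein lipase, the enzyme that frees fatty acids from circulating fat. It measured 5.33, 5.43 and 5.22 on the female, male and mixed arrays of E18.5 and 8.02, 8.06 and 7.81 on those of E19.5. All E19.5 arrays lay above all E18.5 arrays. The change was 2.63 (SE 0.173), or 6.2-fold, with an adjusted p of 2.96e-11, and a dimmer second probe set, below the expression limit, moved by 1.39 (adjusted p 1.08e-05).

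*Plin5* (gene ID 66968), which coats lipid droplets in oxidative tissues and tethers them to mitochondria, measured 4.23, 4.39 and 4.26 at E18.5 and 6.61, 6.39 and 6.89 at E19.5. It rose 5.05-fold (2.34, SE 0.223, adjusted p 2.5e-07) with no overlap. Its second probe set stayed below the expression limit and gave 0.31 (adjusted p 0.484). *Pdk4*, a kinase that inactivates pyruvate dehydrogenase, measured 6.57, 6.42 and 5.06 at E18.5 and 8.51, 8.54 and 7.85 at E19.5. The mixed arrays were the lowest of their stage, yet the stages did not overlap, and the rise was 2.28 (SE 0.331, adjusted p 0.000238). *Pdk4* was the only member called among 12 expressed genes of the pyruvate dehydrogenase complex and its kinases.

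In all, 6 of 30 expressed genes of fatty acid uptake, binding and storage rose and none fell, beside 0.965% and 2.22% of all expressed genes. After quantile normalization 7 rose and 2 fell, with the hybridization control covariate 11 and 3, and with median centring or the expression limit before the model 6 and 2. Without the male array of E18.5 or E19.5, 3 and 2 rose. Beside *Angptl4* and *Plin5*, the 6 main calls included *Gpihbp1* (1.12, adjusted p 0.00975), which anchors lipoprotein lipase on capillaries, and the droplet coat *Plin2* (0.97, adjusted p 0.00842). The others were *Pnpla2* (0.74, adjusted p 0.0155), the lipase that opens the droplet's triglyceride stores, and *Acacb* (0.95, adjusted p 0.00469). *G0s2*, an inhibitor of that lipase, gave −1.08 with no overlap between stages but an adjusted p of 0.054, and *Acsl3* gave −1.21 (adjusted p 0.0823). The fatty acid carriers *Cd36* (0.90, adjusted p 0.123) and *Fabp3* (0.72, adjusted p 0.421) did not pass, and their stages overlapped. Other expressed probe sets gave 1.05 and 0.68 for *Cd36* (adjusted p 0.0924 and 0.0677) and 1.07 for *Fabp3* (adjusted p 0.095). Both genes were called with the hybridization control covariate. *Cd36* was also called after quantile normalization, with sex label as a block in the 6 arrays, and without the female array of E18.5 or the mixed array of E19.5. The list's median change was 0.16, beside −0.02 over all expressed genes. Without the male array of E19.5, *Gpihbp1*, *Plin2*, *Pnpla2* and *Acacb* lost the call, with adjusted p values of 0.123, 0.123, 0.0887 and 0.0661. Without the male array of E18.5, *Gpihbp1* (0.0977), *Plin2* (0.0595) and *Pnpla2* (0.0851) did, and *Pnpla2* also without the mixed array of E18.5 (0.0509) or the female array of E19.5 (0.109).

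Fatty acid oxidation and ketone use had the highest median change of the metabolic lists, which was 0.51 over 30 expressed genes and lay between 0.33 and 0.67 under all alternatives tried. Of these genes, 6 rose, 1 fell, and 16 were higher at an unadjusted p below 0.05. Over all 9740 expressed genes, 0.965% rose, 2.22% fell, and 819 were higher at an unadjusted p below 0.05. *Acot2*, a mitochondrial thioesterase that releases fatty acids from coenzyme A, measured 7.93, 8.05 and 7.58 at E18.5 and 9.37, 9.45 and 9.93 at E19.5. It rose 3.32-fold (1.73, SE 0.177, adjusted p 8.07e-07). A second probe set of *Acot2*, below the expression limit, gave 0.32 (adjusted p 0.58). *Cpt1a*, the liver form of the enzyme that loads long-chain fatty acids onto carnitine, measured 7.69, 7.65 and 7.60 at E18.5 and 8.58, 8.67 and 8.84 at E19.5 and the stages did not overlap. Its rise was 1.05 (SE 0.13, adjusted p 1.72e-05), and a second expressed probe set gave 0.95 (adjusted p 0.00179).

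Also higher were *Acadvl* (1.08, adjusted p 0.00898) and *Hadha* (1.03, adjusted p 0.0345), which carry out early and later steps of long-chain beta-oxidation, and the carnitine transporter *Slc22a5* (0.78, adjusted p 0.0129). *Mlycd* rose by 0.85 (adjusted p 0.00218); it breaks down malonyl-CoA, the inhibitor of carnitine palmitoyltransferase that the product of *Acacb* makes. *Ech1* (1.02, adjusted p 0.0921), *Slc25a20* (0.73, adjusted p 0.0551) and *Acads* (0.68, adjusted p 0.0832) did not overlap between stages but missed the threshold. *Acadm* (−0.20) and *Acadl* (−0.09), the medium- and long-chain dehydrogenases, had adjusted p values of 0.835 and 0.952. *Acot2*, *Cpt1a* and *Mlycd* held without each array in turn, whereas *Acadvl*, *Slc22a5* and *Hadha* lost the call without the male array of E18.5 (0.0722, 0.0836 and 0.197) or of E19.5 (0.0553, 0.0661 and 0.249), and *Hadha* also without the mixed array of E18.5 (0.118) or the female array of E19.5 (0.102).

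The 1 member that fell, *Bdh1*, takes up the first step of ketone body use. It measured 5.19, 5.45 and 5.02 at E18.5 and 4.37, 4.05 and 4.29 at E19.5, a change of −0.99 (SE 0.221, adjusted p 0.0182; 0.126 and 0.147 without the male array of E18.5 or E19.5). Of 80 expressed respiratory chain and ATP synthase genes, 2 rose, beside 0.965% of all expressed genes. At an unadjusted p below 0.05, 17 were higher, beside 819 of all 9740, and the list's median was 0.25. The number that rose was 21 with the hybridization control covariate and 5 after quantile normalization or median centring, and the median was 0.05 without the mixed array of E18.5 and 0.45 without the female one. The 2 main calls were *Ndufv1* of complex I (0.68, adjusted p 0.0494) and *Atp5d* of ATP synthase (0.68, adjusted p 0.026). Both calls were lost without either male array, the mixed array of E18.5 or the female array of E19.5 (adjusted p 0.073 to 0.32). The citric acid cycle (21 genes) and mitochondrial ribosomal proteins (72 genes) had 0 calls in limma, with 1 gene and 13 genes at an unadjusted p below 0.05. The 16 expressed sterol synthesis genes had 0 calls too, with 5 lower unadjusted and a median of −0.29.

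The glucose transporters *Slc2a1* and *Slc2a3* fell. *Slc2a1* (GLUT1), the main glucose transporter of the fetal heart, measured 10.37, 10.69 and 10.64 at E18.5 and 9.38, 9.01 and 9.23 at E19.5. All 3 later arrays were lower than all earlier ones, the level fell to 0.39 of that at E18.5 (−1.36, SE 0.16, adjusted p 1.08e-05), and its 2 other probe sets passed the test in the same direction (−1.43 and −0.91). *Slc2a3* (GLUT3) measured 6.71, 6.49 and 6.23, then 5.56, 5.51 and 5.51 (−0.95, SE 0.166, adjusted p 0.0023). *Slc2a4* (GLUT4), the insulin-responsive transporter of the adult heart, gave −0.47 without overlap (adjusted p 0.175).

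*Txnip*, an arrestin-like protein that restrains glucose uptake, measured 7.94, 7.68 and 8.15 at E18.5 and 9.54, 9.55 and 9.09 at E19.5 (1.47, SE 0.252, adjusted p 0.0019). No enzyme of glycolysis itself was called among the 26 expressed genes of glycolysis and glucose transport, whose median was −0.004. *Ppp1r3d*, a glycogen-targeting subunit of protein phosphatase 1, was the only call among 17 glycogen genes (−0.66, adjusted p 0.0418), and it held only without the mixed array of E19.5 (adjusted p 0.0643 to 0.341 without each of the other arrays).

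**Figure D2:**
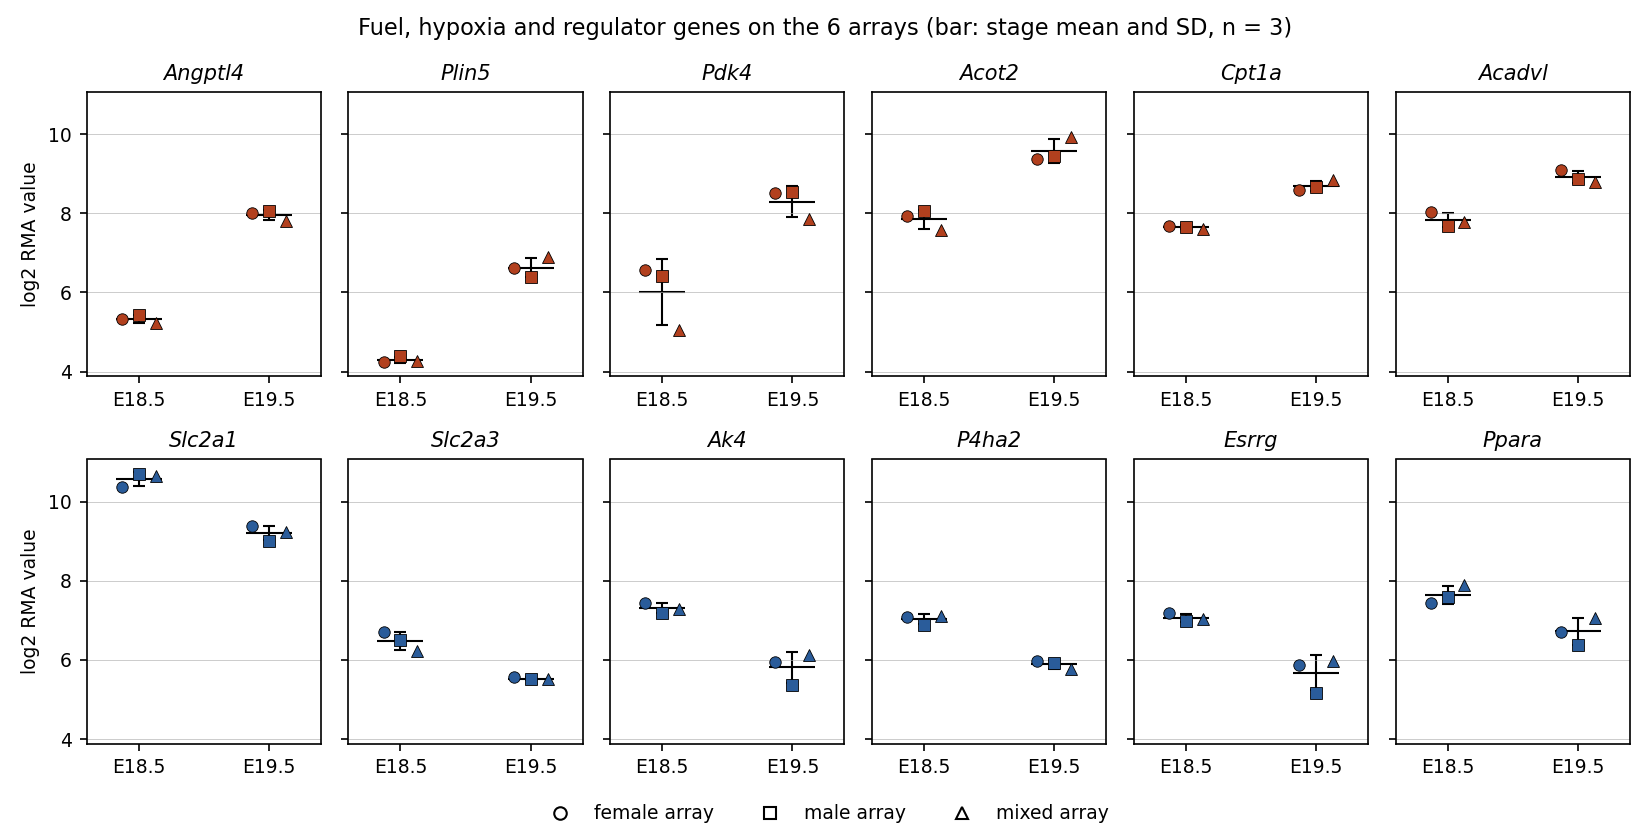
Levels (log2 RMA value) of 12 genes on the 6 arrays; circles, squares and triangles are the female, male and mixed arrays, and bars are the stage mean and SD (n = 3). In each panel the 3 arrays of E19.5 lie apart from the 3 of E18.5, above them for *Angptl4*, *Plin5*, *Pdk4*, *Acot2*, *Cpt1a* and *Acadvl* and below them for the other genes.

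*Slc2a1* is also a classic target of hypoxia-inducible factors, which bind to a short core sequence near genes induced by low oxygen. Of 27 expressed hypoxia targets, 5 fell and none rose, beside 2.22% and 0.965% of all expressed genes. At an unadjusted p below 0.05, 12 were lower, beside 1241 of all 9740. The list's median was −0.33 and stayed between −0.50 and −0.24 under all alternatives. *Ak4*, a mitochondrial adenylate kinase, measured 7.45, 7.19 and 7.30 at E18.5 and 5.95, 5.38 and 6.13 at E19.5 (−1.49, SE 0.222, adjusted p 0.000311). Its 4 other probe sets, all dimmer and below the expression limit, gave −0.92 to −0.05 and did not pass. *P4ha2*, which hydroxylates proline in collagen, measured 7.10, 6.88 and 7.11, then 5.97, 5.93 and 5.76 (−1.14, SE 0.166, adjusted p 0.000256).

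The collagen lysyl hydroxylase *Plod2* fell by 0.95 (adjusted p 0.0182) and *Adm*, the vasodilator peptide adrenomedullin, by 0.72 (adjusted p 0.0411). A second expressed probe set of *Plod2* gave −0.42 (adjusted p 0.23) and did not pass. *Slc2a1*, *Ak4* and *P4ha2* held without each array in turn. *Plod2* lost the call without the female or male array of E18.5 (0.052 and 0.0851) or the male or mixed array of E19.5 (0.137 and 0.0582), and *Adm* without the female or male array of E18.5 (0.122 and 0.213) or of E19.5 (0.0534 and 0.353). *Vegfa* (−0.49, adjusted p 0.677), *Pdk1* (−0.69, adjusted p 0.183) and *Ddit4* (−0.33, adjusted p 0.75) did not pass. The glycolytic targets *Ldha* (0.34, adjusted p 0.732) and *Pgk1* (0.38, adjusted p 0.534) had positive values that did not pass either. The oxygen level of the hearts was not measured, and its part in these changes was not tested.

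The core of the hypoxia response element, ACGTG, was searched on both strands in the 250 bases before each RefSeq start site (build GRCm38.p6). It was found for *Slc2a1*, *P4ha2* and *Ak4*, 3 of the 4 called targets with an entry, and in 16.6% of all 32851 promoters. The list was made of known hypoxia targets, and matches in its uncalled members were not compared. Whether the match goes with the fall was not tested. The match starts 36 bases before the start site of *Slc2a1* and 78 bases before that of *P4ha2*. The windows of both are shown as examples of called targets that hold the match. They run 5′ to 3′ along the gene's strand (plus for both), at chr4:119108495-119108744 and chr11:54100674-54100923, with the match in capitals.
Slc2a1: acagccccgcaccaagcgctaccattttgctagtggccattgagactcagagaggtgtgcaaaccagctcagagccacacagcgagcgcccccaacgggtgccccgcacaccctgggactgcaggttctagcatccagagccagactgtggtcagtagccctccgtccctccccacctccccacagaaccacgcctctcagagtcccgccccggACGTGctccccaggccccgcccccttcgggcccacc
P4ha2: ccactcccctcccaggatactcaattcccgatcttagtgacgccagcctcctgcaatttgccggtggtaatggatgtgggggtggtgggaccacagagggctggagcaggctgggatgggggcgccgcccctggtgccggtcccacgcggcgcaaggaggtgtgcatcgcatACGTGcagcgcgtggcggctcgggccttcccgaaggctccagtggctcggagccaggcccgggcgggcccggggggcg

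Among 25 expressed regulators of mitochondrial and lipid metabolism 4 fell and none rose, beside 2.22% and 0.965% of all expressed genes. The list's median was −0.10. *Esrrg*, the estrogen-related receptor gamma, which drives genes of oxidative metabolism in the heart, measured 7.18, 6.98 and 7.03 at E18.5 and 5.88, 5.17 and 5.97 at E19.5 (−1.39, SE 0.23, adjusted p 0.00136). The stages did not overlap, while its 2 other probe sets, below the expression limit, gave 0.24 and −0.0013 and did not pass. *Ppara*, the nuclear receptor for fatty acids that activates *Cpt1a*, *Pdk4* and *Angptl4*, measured 7.44, 7.59 and 7.90, then 6.71, 6.38 and 7.06 (−0.92, SE 0.222, adjusted p 0.0292), and its 2 other probe sets, both expressed, gave −0.21 (adjusted p 0.787) and −0.03 (adjusted p 0.978).

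*Tfb1m*, which methylates mitochondrial ribosomal RNA, fell by 1.11 (adjusted p 0.0121), and *Klf15*, a glucocorticoid-induced regulator of lipid and amino acid use, fell by 0.90 (adjusted p 0.0411). *Ppargc1a*, the coactivator PGC-1alpha, gave −0.46 without overlap and an adjusted p of 0.0608, and its 4 other probe sets, all expressed, gave −0.56 to −0.80, of which the last passed (adjusted p 0.0239). With the 30 embryonic arrays, with the control covariate, with the expression limit before the model or without the mixed array of E19.5, the gene was called. *Esrrg* held without each array in turn. *Ppara* lost the call without either male array (0.102 and 0.252), the mixed array of E18.5 (0.123) or the female array of E19.5 (0.0773), *Tfb1m* without either male array (0.0925 and 0.168), and *Klf15* without any array but the mixed one of E18.5 (0.0671 to 0.195). The PPAR response element, a direct repeat of AGGTCA with 1 base between the repeats, was searched in the same windows on both strands, and no match was found for the 12 genes with an entry among the 14 called in the lists of fatty acid oxidation, fatty acid uptake and pyruvate dehydrogenase; 0.0335% of all promoters held it.

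Chaperones of the endoplasmic reticulum, which fold secreted and membrane proteins, were the other stress list with a low median (−0.33 over 25 expressed genes, between −0.48 and −0.21 under all alternatives). Of its members 3 fell and none rose, beside 2.22% and 0.965% of all expressed genes, and 22 of 25 had a change below 0. Of all expressed genes, 47.1% had a change above 0. *Pdia3*, a disulfide isomerase, measured 7.24, 7.13 and 6.74 at E18.5 and 6.24, 5.90 and 5.77 at E19.5 (−1.07, SE 0.239, adjusted p 0.0181). *Hsp90b1* (GRP94) measured 10.43, 10.53 and 10.39, then 9.89, 9.57 and 9.85 (−0.68, SE 0.143, adjusted p 0.0116). *Hyou1* gave −0.59 (adjusted p 0.0453). The chaperone *Hspa5* (BiP; −0.50, adjusted p 0.372), *Calr* (−0.62, adjusted p 0.0677) and *Ddit3* (CHOP; −0.13, adjusted p 0.901) did not pass. All 3 calls depended on single arrays: *Pdia3* and *Hsp90b1* were lost without the male array of E18.5 (0.102 and 0.0836) or of E19.5 (0.113 and 0.132), *Pdia3* also without the female array of E18.5 (0.0662), and *Hyou1* held only without the mixed array of E19.5.

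The ER stress response element, CCAAT and CCACG with 9 bases between them, is bound by factors of the unfolded protein response. It was present in 0.113% of the 32851 promoter windows, in that of *Hsp90b1* but not in that of *Pdia3*; *Hyou1* has no entry. The window of *Hsp90b1* (chr10:86705445-86705694, minus strand, shown 5′ to 3′ along the gene) holds it once on each strand, starting 212 and 107 bases before the start site, with both in capitals.
Hsp90b1: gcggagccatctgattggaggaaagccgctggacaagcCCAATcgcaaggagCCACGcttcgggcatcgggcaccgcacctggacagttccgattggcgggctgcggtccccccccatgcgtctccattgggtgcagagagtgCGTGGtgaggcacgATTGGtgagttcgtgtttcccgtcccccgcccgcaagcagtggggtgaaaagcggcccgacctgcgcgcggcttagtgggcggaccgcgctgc

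Other stress lists had few or no calls in limma, and *Hmox1*, heme oxygenase, was below the expression limit. Of all expressed genes, limma called 0.965% higher and 2.22% lower. The 25 expressed heat shock proteins (0 called, 6 lower and 0 higher at an unadjusted p below 0.05), 28 antioxidant genes (0 called, 5 higher), 26 immediate early genes (0 called, 1 lower), 14 p53 targets (0 called, 1 higher) and 14 acute phase genes (0 called, 3 higher and 1 lower) did not pass. *Mt1* (0.06) and *Mt2* (0.02), the metallothioneins, had adjusted p values of 0.962 and 0.992. A change above 0 was found in 24 of the 28 antioxidant genes, beside 47.1% of all expressed genes. *Shmt2*, a mitochondrial enzyme of one-carbon metabolism and a target of the amino acid response factor ATF4, was the only call among 22 genes of that response. It gave −0.96 (adjusted p 0.0116, and 0.0697 and 0.108 without the male array of E18.5 or E19.5). A second expressed probe set gave −0.55 (adjusted p 0.166). Among autophagy and FOXO targets, *Txnip* and *Map1lc3a*, the autophagosome protein LC3A (0.56, adjusted p 0.019), rose and *Klf15* fell; *Map1lc3a* lost the call without either male array, the mixed array of E18.5 or the female array of E19.5 (0.0601 to 0.243).

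**Figure D3:**
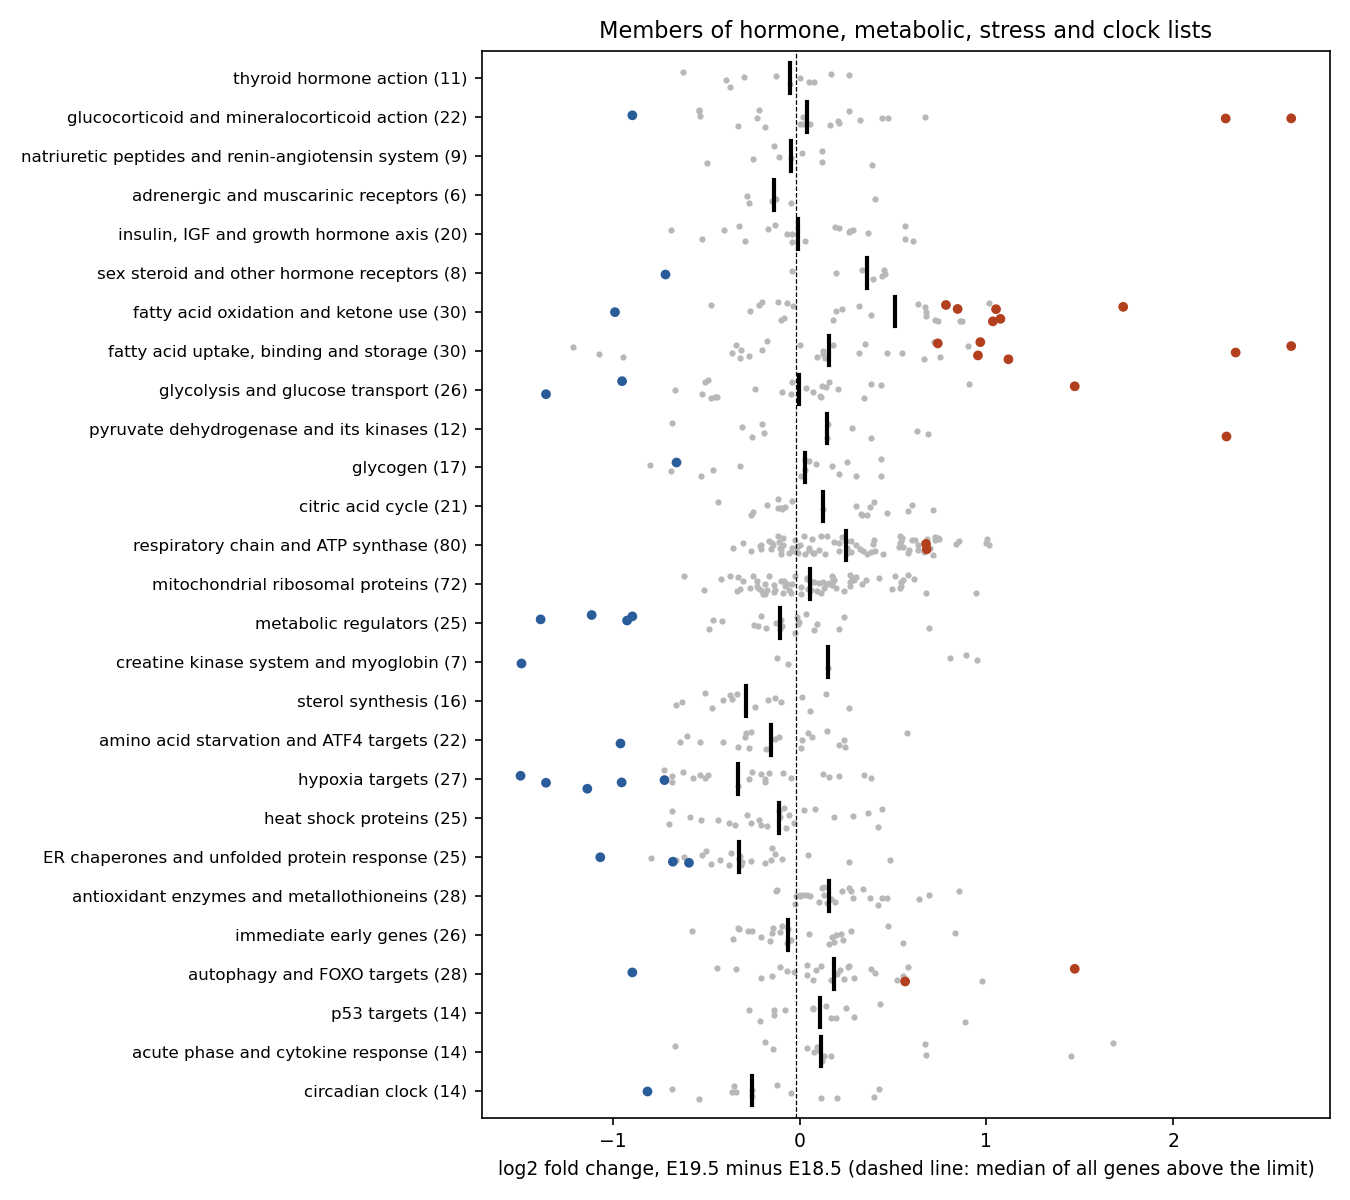
Log2 fold change (E19.5 minus E18.5) of the expressed members of each hormone, metabolic, stress and clock list, with the number of expressed members in brackets; each point is 1 gene, red or blue where called, the black bar is the list's median and the dashed line the median of all expressed genes (−0.02). Fatty acid oxidation lies to the right (median 0.51), and hypoxia targets and ER chaperones to the left (−0.33 each).

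Few hormone receptors or their classic targets were called. Over all expressed genes 0.965% were called higher and 2.22% lower. Lists this short can therefore hold 0 calls without differing from other genes. Of 11 expressed genes of thyroid hormone action, limma called none, and 3 were lower at an unadjusted p below 0.05. The receptor *Thra* measured 7.36, 7.43 and 7.74 at E18.5 and 7.21, 6.83 and 7.31 at E19.5 (−0.40, adjusted p 0.169), just without overlap. Other expressed probe sets of *Thra* gave −0.13 (adjusted p 0.798) and −0.08 (adjusted p 0.872). *Thrb* (0.19) and *Dio2* (0.34), which activates thyroxine, were below the expression limit in both stages.

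Of 22 expressed genes of glucocorticoid and mineralocorticoid action, *Angptl4* and *Pdk4* rose and *Klf15* fell; the first 2 also stand on the lists of fatty acid uptake and pyruvate dehydrogenase. The glucocorticoid receptor *Nr3c1* gave 0.27 (adjusted p 0.589). Its sensitive targets *Fkbp5* (−0.22, adjusted p 0.784), *Tsc22d3* (−0.54, adjusted p 0.491), *Per1* (−0.54, adjusted p 0.457) and *Ddit4* did not pass. *Hsd11b1*, which regenerates active glucocorticoid, was below the expression limit with means of 4.84 and 4.88, as were *Nr3c2* and *Hsd11b2*. The list's median was 0.04.

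The natriuretic peptides *Nppa* (0.39, SE 0.508) and *Nppb* (−0.25, SE 0.354) had adjusted p values of 0.86 and 0.872, and of 9 expressed genes of their list and the renin-angiotensin system none was called (1 lower at an unadjusted p below 0.05). *Adrb1*, the main cardiac beta-adrenergic receptor, gave −0.05 (95% interval −0.43 to 0.33), the angiotensin receptor *Agtr2* was below the expression limit, and none of 6 adrenergic and muscarinic genes was called (2 lower unadjusted). For insulin and insulin-like growth factors, 0 of 20 genes were called (2 higher and 4 lower unadjusted). *Igf2*, a fetal growth factor, measured 9.97, 9.45 and 9.36 at E18.5 and 10.53, 10.53 and 9.54 at E19.5 (0.61, adjusted p 0.325), and *H19*, the noncoding RNA of the same imprinted locus, gave 0.57 (adjusted p 0.544). In both genes the female and male arrays were higher at E19.5 and the mixed one stayed near its earlier level, so the stages overlapped. *Igf1r*, the receptor of these growth factors, gave 0.21 (adjusted p 0.751), while its 4 other expressed probe sets gave −0.64 (adjusted p 0.181), −0.44, −0.18 and 0.14, and none passed. Of 8 expressed receptors and peptides of other hormones only *Adm* was called, with a list median of 0.36.

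Of 14 expressed circadian clock genes 1 was called lower, beside 2.22% of all expressed genes. *Npas2*, a partner of BMAL1 and paralog of CLOCK, measured 6.19, 6.65 and 6.29 at E18.5 and 5.71, 5.41 and 5.55 at E19.5 (−0.82, SE 0.179, adjusted p 0.0154; 0.133 and 0.127 without the male array of E18.5 or E19.5). *Dbp* (0.20, adjusted p 0.83) was expressed but not called, and *Nr1d1* was below the limit. The hour of dissection is not given in the sources used here. Contractile genes that mark maturation were also not called: *Myh7* (−0.28, adjusted p 0.735), *Tnni1* (0.58, adjusted p 0.505), *Tnni3* (0.04, adjusted p 0.961) and *Tcap*, a titin cap protein (0.70, adjusted p 0.0649, no overlap). *Tcap* was called, however, after quantile normalization or median centring, with the hybridization control covariate, with the expression limit before the model, and without the female array of E18.5 or the mixed array of E19.5.

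Markers of other cells were measured on the same arrays, where 0.965% of all expressed genes rose and 2.22% fell. Among 19 expressed endothelial markers, *Esam* (1.07, adjusted p 0.0277), *Egfl7* (1.03, adjusted p 0.0116) and *Cldn5* (0.87, adjusted p 0.033) rose, with a list median of 0.38; their mean level was 6.78 to 7.04 on the E18.5 and 7.08 to 7.47 on the E19.5 arrays. *Gpihbp1* is made by endothelium too, and the part of endothelial RNA in its rise was not tested. The 3 endothelial calls were lost without either male array, the mixed array of E18.5 or the female array of E19.5 (adjusted p 0.0644 to 0.315). Of 3 expressed granulocyte and mast cell markers, *S100a8* measured 4.54, 3.55 and 4.01, then 6.54, 6.50 and 4.11 (1.68, adjusted p 0.119), high on the female and male arrays of E19.5. *Cdc20* alone fell among 23 proliferation markers (−0.61, adjusted p 0.017; list median −0.32). In the ventricular list *Hey2* fell by 1.21 (adjusted p 0.0155), the only call among 13 expressed genes with a median of 0.04. *Mfap5* rose by 1.16 (adjusted p 0.011), the only call among 17 expressed fibroblast and valve genes with a median of 0.14. *Prdm16*, on the brown adipocyte list, fell by 0.76 (adjusted p 0.0176), with 4 of 15 genes of that list expressed and a list median of 0.003. Each of these 4 calls was lost without the male array of either stage (adjusted p 0.0722 to 0.188). *Hey2* was also lost without the female array of E18.5 (0.0775) or the mixed array of E19.5 (0.0583). *Mfap5* was also lost without the mixed array of E18.5 (0.0746) or the female array of E19.5 (0.0657). Without the mixed array of E18.5, *Cdc20* was lost too (0.0597).

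Further genes with large increases belonged to none of the metabolic lists. *Lgals4*, a galectin best known from the gut, measured 6.34, 6.50 and 6.72 at E18.5 and 8.17, 8.20 and 8.25 at E19.5 (1.69, SE 0.209, adjusted p 1.72e-05). *Fmn1*, an actin-nucleating formin, measured 6.03, 6.14 and 6.07, then 7.35, 7.32 and 7.51 (1.31, SE 0.14, adjusted p 1.57e-06), and *Tbrg1* gave 1.50 (adjusted p 0.00116). All 3 held without each array in turn. *Cirbp*, a cold-inducible RNA-binding protein, measured 3.66, 3.15 and 3.29 at E18.5 and 5.51, 5.49 and 4.24 at E19.5 (1.72, adjusted p 0.0022). *Rbp7* (1.84, adjusted p 0.0081), *Prg4* (1.61, adjusted p 0.00284) and *Anxa3* (1.34, adjusted p 0.0104) had the same shape, high on the female and male arrays of E19.5 and lower on the mixed one, and each of these 4 lost the call without the male array of E19.5. All 4 also lost it without the female array of E19.5, *Rbp7* (adjusted p 0.0598) and *Anxa3* (0.0706) by the test and *Cirbp* and *Prg4* because their mean fell below the expression limit. *Rbp7* and *Anxa3* lost it without the male array of E18.5 as well (0.0647 and 0.0851), and *Anxa3* without the mixed one (0.0568).

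The largest decrease was that of *Kcne3*, a small subunit of potassium channels, which measured 5.57, 5.18 and 4.89 at E18.5 and 3.33, 3.00 and 4.07 at E19.5 (−1.74, SE 0.267, adjusted p 0.000532). *Fignl1*, an ATPase of DNA repair, measured 8.15, 8.20 and 7.68, then 6.52, 6.37 and 6.81 (−1.44, SE 0.247, adjusted p 0.0019). *Bcl11b*, a zinc finger transcription factor, gave −1.24 (adjusted p 1.72e-05), and a second expressed probe set −1.05 (adjusted p 0.00313). *Plekha7*, an adherens junction protein (−1.27, adjusted p 0.001), and *AU021895* (−1.37, adjusted p 0.00135) held like these without each array in turn. *Rmdn1* (−1.46, adjusted p 0.00284) was lost without the male array of E19.5 (0.0661). A second expressed probe set of *Rmdn1* gave −0.42 (adjusted p 0.317), and that of *Plekha7* −0.56 (adjusted p 0.294). *Sh2d4a* (−1.46, adjusted p 0.0105) was lost without the male array of either stage (0.0811 and 0.0723). *Tmeff1* (−1.26, adjusted p 0.0122) and *Reep1* (−1.30, adjusted p 0.049) were lost without these arrays and others.

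The other stages place these changes in the time course as a description. The young adult mean lay beyond the E18.5 mean in the direction of the change for 81 of the 94 higher and 208 of the 216 lower genes. Both differences use the same E18.5 arrays, so that a deviation of those arrays moves them the same way, and nothing is read from these counts. E19.5 was the highest of all 12 stages for 22 of the higher genes and the lowest for 27 of the lower ones. Among all expressed genes this held for 5.03% and 4.19%. The called genes were selected by their E19.5 level, so nothing is read from these shares either. *Angptl4* stayed between 4.60 and 5.33 from E10.5 to E18.5, reached 7.96 (SD 0.13, n = 3) at E19.5 and was back at 5.22 (SD 0.24) in young and 5.17 in old adults. *Pdk4* (8.30 at E19.5, 6.71 in young adults), *Acot2* (9.58 and 7.92) and *Cpt1a* (8.70 and 7.58) were likewise highest at E19.5.

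*Plin5* and *Lgals4* did not turn back, with young adult means of 8.47 and 8.62. *Slc2a1* went on to 7.33 and *Esrrg* to 4.04, while *P4ha2*, at its lowest at E19.5 (5.89), measured 6.96 in young adults, close to its 7.03 at E18.5. *Bdh1* was 4.23 at E19.5 and 6.43 in young adults. Adult stages enter here as a description, and no test of them was made.

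**Figure D4:**
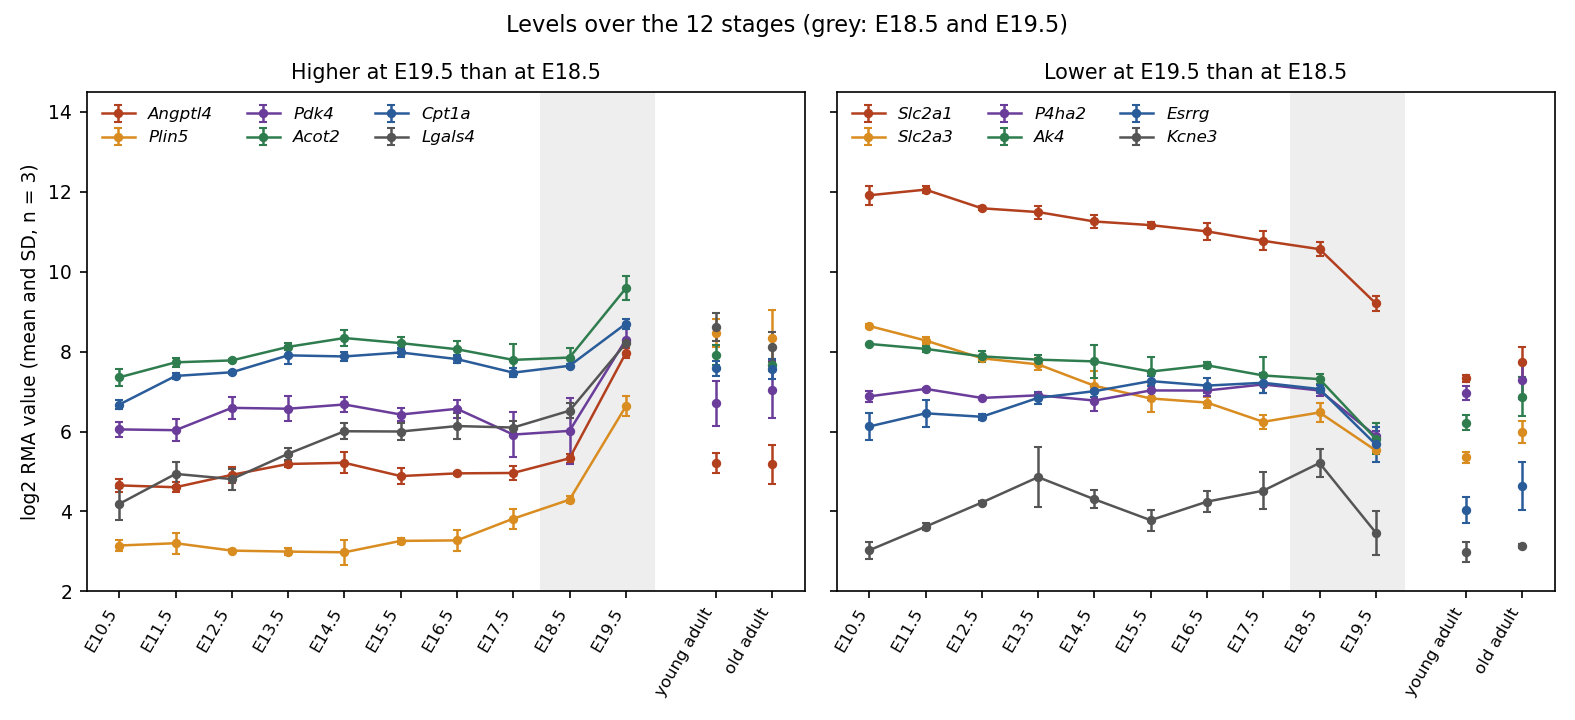
Mean level (log2 RMA value, error bars SD, n = 3) of 12 called genes at the 12 stages, with lines joining the embryonic days and grey marking E18.5 and E19.5. *Angptl4* steps up from 5.33 to 7.96 and is 5.22 in young adults, whereas *Plin5* climbs further to 8.47, and *Slc2a1* falls from 10.57 to 9.21 on the last day.

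Whether the last day differed from the days before it was asked with a contrast of the last step minus the mean daily step from E15.5 to E18.5, in the same model. This passed for 48 genes, 0.493% of the expressed ones, 16 with a more positive and 32 with a more negative last step, and 45 of them were also called in the step itself. *Angptl4*, *Acot2*, *Cpt1a* and *Plin5* were among the positive and *Slc2a1*, *Ak4*, *P4ha2*, *Esrrg*, *Ppara* and *Bdh1* among the negative ones. For 35 of the 48 the last step and the earlier daily step had opposite signs, but both use the E18.5 arrays, so that a deviation of those arrays moves the steps in opposite directions. Without the male array of E18.5 or E19.5 the count was 13 in both cases, and without the mixed array of E19.5 it was 135.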

How the data were processed

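Whole-genome Affymetrix arrays were measured in 36 heart samples. The authors background-corrected, normalized and summarized them with RMA, and the deposited values are log2 intensities for 45101 probe sets. Depth does not apply to arrays, and their number, 3 per stage, limits the precision. From these values 12 stage means were fitted with limma 3.58.1 (lmFit and eBayes) in R 4.3.3 and adjusted over all probe sets by Benjamini-Hochberg. A gene was called at an adjusted p below 0.05 and a mean above 5 at E18.5 or E19.5, and was counted by gene ID on the probe set with the highest mean over all arrays; 6937 probe sets without a gene ID were left out of counts. Symbols came from the table or, for 18342 of 20701 gene IDs, from RefSeq. Other probe sets of a gene are given for some of the named genes only. The members and lists were chosen with earlier results of these data known.

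Genes named were the 12 highest and 12 lowest called genes whose stages did not overlap, called list members and a list of hormone, fuel and stress genes, of which 3 were not analysed and 1 is not reported here. Called cell type markers and the uncalled genes *Vegfa*, *Pdk1*, *Ldha*, *Pgk1*, *Acadm*, *Acadl*, *Acads*, *Ech1*, *Slc25a20*, *G0s2*, *Acsl3*, *Hspa5*, *Calr*, *Ddit3* and *S100a8* were added after their values were seen. Single values were tested with exact permutation tests over the 6 arrays. The procedure was tested on simulated data for E19.5 minus E18.5 over 45101 probe sets. It found 66 of 100 changes of 1 and 98 of 100 changes of 2 on the log2 scale, with 2 false among 166 calls. The simulated noise was drawn separately for each probe set and array. Deviations shared across an array were not simulated, so the share of false calls in the real data cannot be read from this test. Alternatives were other sets of arrays, sex label as a block, further scaling, a control covariate, other expression limits, variance settings and probe set choices, and leaving out each array.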

Additional observations from a re-analysis of the deposited data

Results flagged for a closer look

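The last daily step differed from the mean daily step between E15.5 and E18.5 for 48 genes, by a test of the difference itself (the limma contrast, adjusted p below 0.05 over all probe sets). Among the genes named, the last step exceeded the earlier daily step by 2.48 on the log2 scale for *Angptl4*, 2.42 for *Pdk4*, 1.99 for *Plin5*, 1.85 for *Acot2*, 1.83 for *Cirbp*, 1.71 for *Tbrg1*, 1.63 for *Txnip*, 1.51 for *Lgals4*, 1.18 for *Fmn1* and 1.16 for *Cpt1a*. The difference was −0.9985 for *Bcl11b*, −1.01 for *Adm*, −1.14 for *P4ha2*, −1.16 for *Slc2a1*, −1.24 for both *Npas2* and *Ppara*, −1.30 for *Bdh1*, −1.32 for *Esrrg*, −1.43 for *Ak4*, −1.46 for *Rmdn1*, −1.62 for *Sh2d4a* and −2.22 for *Kcne3*.

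Of the 48 genes, 3 were not called in the last step itself, and they are named here after their values were seen. *Kcnip2*, a subunit of the channels that carry the transient outward potassium current, had risen by 0.75 per day and gave −0.38 on the last day, a difference of −1.13 (adjusted p 0.00844). *Slc47a1*, an organic cation exporter, gave −1.002 (adjusted p 0.0464), and the membrane carbonic anhydrase *Car14* −0.86 (adjusted p 0.0373).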

How the results depend on the processing

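No called named gene reversed its direction under any alternative. Of the uncalled named genes, 7 changed sign when 1 array was left out, with log2 changes from −0.277 to 0.515 for *Dbp*, −0.0865 to 0.212 for *Mt1*, −0.253 to 0.197 for *Mt2*, −0.0125 to 0.131 for *Hsd11b1*, −0.123 to 0.0995 for *Nr3c2*, −0.16 to 0.0337 for *Adrb1* and −0.502 to 0.0884 for *Fkbp5*. Main counts were 94 higher, 216 lower and 48 for the difference from the earlier slope. Higher and lower counts were 3 and 0 with the 6 arrays alone, 152 and 360 with the 30 embryonic arrays, 363 and 417 with the hybridization control covariate, 28 and 31 at a log2 change of at least 1, and 2 and 0 at the limits of the study. The higher count was 220 after a further quantile normalization and 146 with the expression limit set before the model. The slope count was 20 with the slope from E16.5, 131 with the 30 embryonic arrays, 111 after quantile normalization and 145 with the covariate. Leaving out 1 array gave 15 to 294 higher genes, 25 to 253 lower genes and 13 to 135 slope genes. Counts moved over 1.5 times without the female array of E18.5 (142 lower, 27 slope), its male (23, 49 and 13) or mixed array (40 higher, 22 slope), the female (30 higher), male (15, 25 and 13) or mixed array of E19.5 (294 higher, 135 slope), and the female or male array of E15.5 (26 and 30 slope). The cause was not tested; leaving out an array also leaves fewer samples. Of 57 called list members and named genes, 20 held without each of the 6 arrays.

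With sex label as a replicate block in the 6 arrays, 98 genes were higher and 107 lower, of which 45 and 83 were shared with the main calls. With the block over 30 arrays, chosen after seeing the data, there were 62 and 127. Deviations of same-labelled arrays correlated at r = 0.585 (female), 0.0304 (male) and 0.515 (mixed), and the male array of E19.5 correlated best with the female one of E18.5 (0.297). Female and mixed arrays deviated in opposite directions (−0.483 and −0.614). Deviations from a stage mean cancel within the stage, so those of each array follow from those of the others. The correlations therefore depend on one another and cannot decide whether same-labelled arrays form pairs. The hybridization control level also rose from the female to the male to the mixed array in both stages. It was 10.72, 11.00 and 11.56 at E18.5 and 10.97, 11.12 and 11.39 at E19.5. Its part in the shared deviations was not tested. The label was not taken as a pairing in the main model, and whether it marks one was left undecided.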
